A study of Mus musculus with 4 samples.

Results

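This account follows 10 genes of the response to low oxygen and of glycolysis, chosen by symbol from the 23946 symbols listed for each library: *Hif1a*, *Epas1*, *Egln3*, *Slc2a1*, *Hk2*, *Aldoa*, *Pgk1*, *Ldha*, *Vegfa*, and *Bnip3*. All 10 were listed above 0 in each of the 4 libraries. RNA was measured in CD51+;CD200+ cells, a skeletal stem and progenitor population sorted by FACS, from 3 sutures of the skull, the sagittal (SAG), the coronal (COR), and the posterior frontal (PF), and from the tibial growth plate (GP). The mice were wild type, of strain CD-1, at postnatal day 3, and received no treatment that the labels name. PF is the suture that fuses early in life, SAG and COR remain patent, and GP served as the reference population. There was 1 library per tissue, so no value carries a replicate error and no test between tissues was made. Each suture sample was taken as a complex of bone fronts, mesenchyme, underlying dura mater, and overlying periosteum, and the study gives its number of mice over the tissues, not for each library.

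Cells sense falling oxygen mainly through the HIF transcription factors, pairs of an oxygen-labile alpha subunit and a stable partner, ARNT. When oxygen is plentiful, prolyl hydroxylases of the EGLN family mark the alpha subunit for capture by VHL and degradation. When oxygen is scarce the alpha subunit escapes, pairs with ARNT in the nucleus, and switches on genes for glucose uptake, glycolysis, mitophagy, and blood vessel growth. The growth plate is known as a cartilage without vessels in which chondrocytes depend on HIF-1α and rely heavily on glycolysis. The alpha subunits are controlled largely as proteins, so the RNA values here do not measure HIF activity.

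Values are FPKM, fragment counts scaled to transcript length and library size, as the authors computed them with Cuffdiff. The number of fragments is not given with the files, but the smallest step between low values placed the depth of PF at 44.1%, that of COR at 88.7%, and that of GP at 84.0% of SAG. FPKM of 1 or more was reached by between 11402 and 12263 symbols per library. *Itgav* and *Cd200*, the genes of the antigens sorted for, were at 6.20 FPKM or more in every library, while *Ptprc*, *Tek*, and *Thy1*, genes of antigens sorted against, were below 1 FPKM in each. Of other antigens sorted against, *Enpep* was at 1.39 FPKM in GP to 7.05 in PF, and *Eng* at 0.679 in GP to 1.70 in PF. Ratios below are differences of log2(FPKM + 1) (the added 1 shrinks the ratios of weakly expressed genes), and a ratio was counted when it reached 3-fold on that scale.

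The members fell apart by how much they varied between the libraries. On the log2(FPKM + 1) scale, *Slc2a1*, *Bnip3*, *Hif1a*, *Egln3*, and *Epas1* spanned 3-fold or more between their lowest and highest library, at 4.36, 3.04, 1.96, 1.73, and 1.68. These 5 of 10 members stand beside 24.7% of the 13998 genes that reached 1 FPKM in any library. *Aldoa*, *Pgk1*, *Vegfa*, and *Ldha* stayed within 2-fold, at 0.35, 0.64, 0.71, and 0.91, and *Hk2*, the member with the lowest mean level, lay between, at 1.39. In all, 6 members reached 2-fold, as did 50.9% of all genes. SAG held the highest value of 9 of the 10 members, a place it held for 28.4% of all genes, and *Pgk1*, highest in GP, was the exception. PF held the lowest value of 6 members (34.3% of all genes). *Hif1a*, *Slc2a1*, *Hk2*, *Ldha*, and *Bnip3* shared the full order SAG, GP, COR, PF, which 9.12% of all genes had. In bulk RNA, fewer cells of a type and less RNA per cell cannot be told apart.

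**Figure D1:**
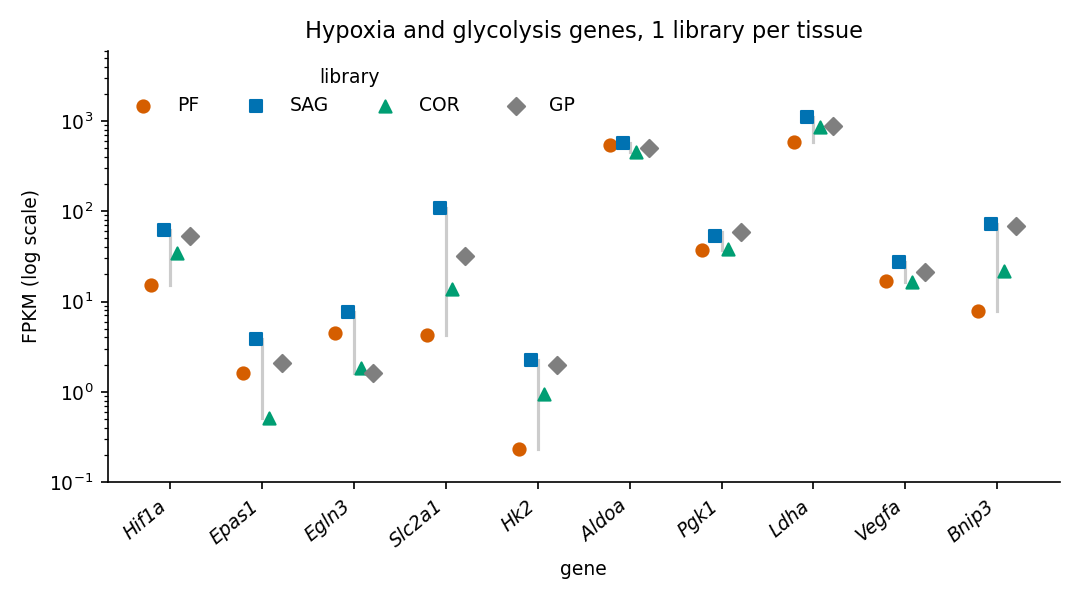
FPKM of the 10 genes (log axis) in the PF, SAG, COR, and GP libraries, 1 point per library, with a grey line from the lowest to the highest value of each gene. *Slc2a1* runs from 4.28 FPKM in PF to 107 in SAG, while the 4 points of *Aldoa* lie between 452 and 576 FPKM.

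*Slc2a1* (mm9 chromosome 4, 118781316 to 118809935) encodes GLUT1, the transporter that brings glucose into most cells. It was at 107 FPKM in SAG, 31.6 in GP, 13.6 in COR, and 4.28 in PF. SAG was far above the other libraries and PF below all of them, a 25.1-fold span without a pseudocount. Of all 13998 genes, 98.9% had a narrower span on the log2(FPKM + 1) scale. The ratio was -4.36 for PF vs SAG, -2.89 for COR vs SAG, and -1.47 for PF vs COR, which lies just inside the limit and passed it with a pseudocount of 0.1 (-1.65). GP was lower than SAG (-1.73) and higher than PF (2.63).

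*Bnip3* (chromosome 7, 146082519 to 146101202) encodes a receptor on the outer mitochondrial membrane that hands mitochondria over to autophagy. Its level was 71.6 FPKM in SAG, 68.0 in GP, 21.6 in COR, and 7.85 in PF. SAG and GP were close to each other, COR lay between, and PF was lowest. The ratio was -3.04 for PF vs SAG, -1.68 for COR vs SAG, 2.96 for GP vs PF, and 1.61 for GP vs COR. The COR vs SAG and GP vs COR ratios became -1.55 and 1.55, short of 3-fold, after a correction for the GC content of transcripts.

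The promoters of these widely varying genes and of *Ldha* and *Pgk1*, whose spans stayed within 2-fold, are shown because HIF binds a short DNA core, here searched as ACGTG and GCGTG on both strands. RefSeq promoter windows of 250 bases before the start site were found for 9 members, 13 windows in all, and each matched mm9 exactly once. No window is given for *Epas1*. The core ACGTG was present in 10 of the 13 windows, compared with 16.6% of 32841 RefSeq promoter windows of the same length, and in at least 1 window of all 9 members. For *Vegfa* that window lies inside the gene and mostly in an exon, and the window at its annotated 5′ end holds no core. Member windows are rich in G and C: of the 8 with a GC content of 60% or more, all 8 held ACGTG, against 23.0% of such windows overall. Of the *Aldoa* windows, 2 overlap and share 1 core, and a match of letters does not show that a factor binds there. The members were chosen as genes of the low-oxygen response and of glycolysis, so an excess of the core is no independent result about them. The sequences run 5′ to 3′ on the strand of the gene and end 15 bases before the start site, with the cores in capitals (CACGT and CACGC are the cores read on the opposite strand, and CACGTG holds ACGTG on both).
Slc2a1 promoter, chr4:118781100-118781334, plus strand: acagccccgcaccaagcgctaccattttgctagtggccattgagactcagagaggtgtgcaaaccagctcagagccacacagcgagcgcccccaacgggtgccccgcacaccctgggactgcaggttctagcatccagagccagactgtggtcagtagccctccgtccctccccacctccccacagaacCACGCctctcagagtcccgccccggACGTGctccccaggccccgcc
Bnip3 promoter, chr7:146101205-146101439, minus strand: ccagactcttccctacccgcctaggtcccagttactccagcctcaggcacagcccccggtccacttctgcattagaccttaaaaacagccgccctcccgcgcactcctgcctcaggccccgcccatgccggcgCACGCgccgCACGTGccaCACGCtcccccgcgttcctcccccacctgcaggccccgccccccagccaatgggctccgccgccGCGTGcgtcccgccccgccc
Ldha promoter, chr7:54100924-54101158, plus strand: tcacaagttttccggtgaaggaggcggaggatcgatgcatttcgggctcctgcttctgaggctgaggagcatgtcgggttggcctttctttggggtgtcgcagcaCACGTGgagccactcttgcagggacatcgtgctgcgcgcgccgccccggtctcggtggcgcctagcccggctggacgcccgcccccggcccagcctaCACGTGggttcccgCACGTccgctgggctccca
Pgk1 promoter, chrX:103382189-103382423, plus strand: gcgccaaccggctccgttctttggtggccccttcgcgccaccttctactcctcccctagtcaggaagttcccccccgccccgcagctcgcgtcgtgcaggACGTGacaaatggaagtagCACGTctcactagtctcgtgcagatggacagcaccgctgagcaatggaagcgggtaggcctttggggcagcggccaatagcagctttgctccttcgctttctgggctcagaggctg
The *Slc2a1* window holds 1 ACGTG, starting 36 bases before the start site, and 1 GCGTG, at 61. The *Bnip3* window holds 2 ACGTG, which form a single CACGTG at 108, and 3 GCGTG. The *Ldha* window shown holds 5 ACGTG, 4 of them in CACGTG pairs at 145 and 48, more than any other member window. The other *Ldha* window, chr7:54102202-54102451, is not shown and holds no ACGTG and 1 GCGTG. The *Pgk1* window holds 2 ACGTG, at 150 and 131. By the GENCODE annotation of mm9, the *Bnip3* and *Pgk1* stretches lie outside any transcript, the *Ldha* stretch lies in an intron of a longer transcript, and the last 19 bases of the *Slc2a1* stretch lie in its first exon.

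*Hif1a* (chromosome 12, 75002362 to 75048517), which encodes HIF-1α, was at 62.3 FPKM in SAG, 53.1 in GP, 34.4 in COR, and 15.3 in PF. SAG and GP were again above COR, and PF was lowest. The ratio was -1.96 for PF vs SAG and 1.73 for GP vs PF, past 3-fold, and -1.12 for PF vs COR. After the GC correction the first 2 became -1.47 and 1.28, below the limit. *Epas1* (chromosome 17, 87153247 to 87232750), which encodes HIF-2α and is best known from endothelial cells, was far lower, at 3.86 FPKM in SAG, 2.07 in GP, 0.517 in COR, and 1.63 in PF. COR was lowest here, and the COR vs SAG ratio of -1.68 passed 3-fold, but became -1.37 with quantile normalization. Within each library *Hif1a* exceeded *Epas1*, by 16.1-fold in SAG, 25.7-fold in GP, 66.4-fold in COR, and 9.35-fold in PF. These are plain ratios, and that of COR rests on an *Epas1* value below 1 FPKM. On the log2(FPKM + 1) scale they were 3.70 in SAG, 4.14 in GP, 4.54 in COR, and 2.63 in PF.

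*Egln3* (chromosome 12, 55279968 to 55304847) encodes a prolyl hydroxylase that acts on the HIF alpha subunits and is itself induced by HIF. It was at 7.67 FPKM in SAG, 1.62 in GP, 1.83 in COR, and 4.52 in PF. SAG was highest, as for *Hif1a*, but GP was lowest and PF second, so *Egln3* did not keep the order of the genes above. The ratio was -1.61 for COR vs SAG, which became -1.39 with quantile normalization, and -1.73 for GP vs SAG. *Egln1*, the main hydroxylase of HIF-1α in most cells, was at 20.0 FPKM in SAG, 25.7 in GP, 26.5 in COR, and 31.7 in PF, above *Egln3* in every library. The *Egln3* to *Egln1* ratio was 0.384 in SAG, 0.0632 in GP, 0.0693 in COR, and 0.143 in PF.

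The other 12 genes of HIF regulation on the list, among them *Egln2* and *Hif1an*, further oxygen-dependent hydroxylases, all reached 1 FPKM. Of these, 10 stayed within 2-fold over the 4 libraries (50.9% of all genes reached it). *Cited2*, which competes with HIF-1α for a coactivator, was at 15.5 FPKM in COR and at 46.5 to 47.8 elsewhere, a span of 1.56 that lies just below 3-fold. The gene past 3-fold (24.7% of all genes) was *Arnt2*, a partner of the alpha subunits best known from neural tissue, at 1.91 FPKM in SAG, 0.793 in GP, 0.774 in COR, and 5.57 in PF. *Arnt*, the general partner, was at 9.24 FPKM in SAG, 10.4 in GP, 14.8 in COR, and 7.84 in PF. *Hif1a* exceeded *Arnt* by 6.74-fold in SAG, 5.12-fold in GP, 2.33-fold in COR, and 1.95-fold in PF. *Vhl* was highest in PF, at 37.1 FPKM, and lowest in COR, at 21.4. *Egln2* lay between 30.2 and 41.9 FPKM and *Hif1an* between 3.51 and 4.25.

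**Figure D2:**
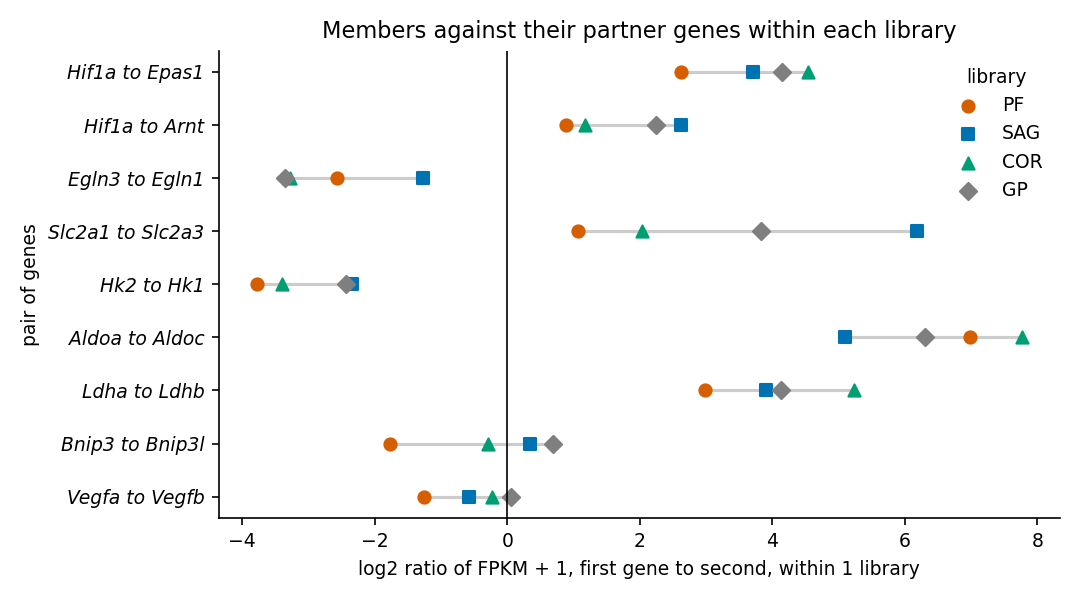
log2 ratio of FPKM + 1 of each gene to a partner gene within the same library, 1 point per library, with a black line at equal levels. *Slc2a1* to *Slc2a3* spreads widest, from 1.06 in PF to 6.18 in SAG, and *Bnip3* to *Bnip3l* crosses the line of equal levels.

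Plain ratios of 2 genes within a library do not change when all its values are scaled alike. The folds below are such plain ratios, while the figure of these pairs adds 1 to each FPKM. For *Slc2a1* to *Slc2a3* in SAG the log2 ratio was 6.18 with the added 1 and 7.78 without it. *Slc2a1* exceeded *Slc2a3*, a transporter best known from neurons, by 2.80-fold in PF and 219-fold in SAG, with 5.32-fold in COR and 24.4-fold in GP. The PF library thus held the smallest excess, and *Slc2a3* itself was low throughout, from 0.490 FPKM in SAG to 2.56 in COR. *Bnip3l*, which encodes the related mitophagy receptor NIX, was at 56.4 FPKM in SAG, 41.7 in GP, 26.5 in COR, and 29.3 in PF, more even than *Bnip3*. The *Bnip3* to *Bnip3l* ratio was 1.27 in SAG, 1.63 in GP, 0.814 in COR, and 0.268 in PF.

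*Hk2* (chromosome 6, 82675019 to 82724448) encodes the inducible hexokinase, which traps glucose in the cell as its phosphate. It was at 2.23 FPKM in SAG, 2.0 in GP, 0.946 in COR, and 0.234 in PF, again with PF lowest and SAG and GP highest. By the depth estimate its PF value rests on about 22.3 fragments, against 481 in SAG. The plain span was 9.53-fold, but the PF vs SAG ratio was -1.39 with a pseudocount of 1 and -2.80 with 0.1, so that its call depends on how low values are treated. *Hk1*, the constitutive hexokinase, was at 15.2 to 19.6 FPKM and supplied most of the hexokinase RNA. *Hk2* made up 1.45% of the summed FPKM of *Hk1*, *Hk2*, and *Hk3* in PF and 4.61% in COR, but 12.6% in SAG and 11.5% in GP.

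The remaining glycolytic members were more abundant, and their spans stayed within 2-fold. *Aldoa* (chromosome 7, 133938748 to 133944265), the aldolase that splits the 6-carbon sugar into trioses, was at 576 FPKM in SAG, 505 in GP, 452 in COR, and 541 in PF. Only 7.69% of all genes had a narrower span. *Pgk1* (chromosome X, 103382439 to 103399038), whose enzyme makes ATP in the lower part of the pathway, was at 53.2 FPKM in SAG, 59.0 in GP, 38.1 in COR, and 37.4 in PF, with PF and COR nearly equal. *Ldha* (chromosome 7, 54096845 to 54110997), which turns pyruvate into lactate, was the most abundant member, at 1097 FPKM in SAG, 885 in GP, 863 in COR, and 584 in PF. In SAG it ranked 23rd of all symbols and in PF it ranked 117th. The largest ratio of the 3 was -0.91, for *Ldha* in PF vs SAG, which passed 2-fold with quantile normalization (-1.38), TPM (-1.21), and the GC correction (-1.03). Its span of 0.91 was above the median of 0.73 for the 987 genes with a mean of 100 FPKM or more, whereas that of *Aldoa*, 0.35, was below it.

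These enzymes have close copies in the mouse genome, and reads shared with a copy could move their values. *Pgk2*, a retrogene of *Pgk1*, was listed at 2.04 FPKM in PF and at 0 in the other libraries, a value singled out after it was seen. *Aldoart1*, *Aldoart2*, and *Ldhc* were each at 0.245 FPKM or less in every library.

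**Figure D3:**
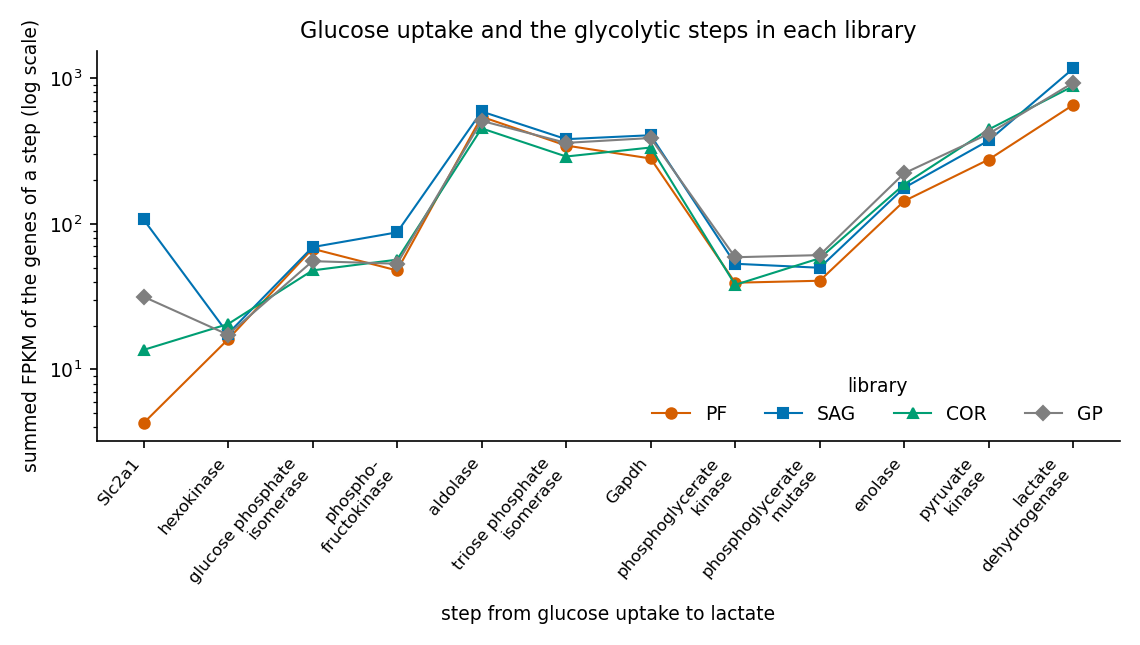
Summed FPKM (log axis) of *Slc2a1* and of the genes of each glycolytic step, from glucose uptake to lactate, with 1 line per library. The lines are spread 25.1-fold at *Slc2a1* and within 1.83-fold at each of the steps that follow.

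Summed over the genes of each step, the 10 glycolytic steps and lactate dehydrogenase differed between libraries by 1.27-fold, for hexokinase, to 1.83-fold, for phosphofructokinase. PF was lowest at 7 of the 11 steps, beside 34.3% of all genes taken singly. At phosphoglycerate kinase COR was lowest, at 38.1 FPKM against 39.4 in PF, where the sum includes the *Pgk2* value. *Gapdh* was at 407 FPKM in SAG, 389 in GP, 335 in COR, and 281 in PF. Sums hide single genes: *Hk2* spanned 9.53-fold, *Aldoc* 14.5-fold, and *Pgam2* 20.3-fold, all at lower levels than the main gene of their step. Summed in the same way, the transporter genes *Slc2a1*, *Slc2a3*, and *Slc2a4* differed by 8.49-fold, from 13.0 FPKM in PF to 110.1 in SAG.

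Of 22 other genes of glucose transport, glycolysis, and lactate handling, 21 reached 1 FPKM and 10 of these stayed within 2-fold. A span of 3-fold or more was found for 7, beside 24.7% of all genes, and their highest library differed from gene to gene. *Aldoc*, an aldolase best known from brain, was at 15.8 FPKM in SAG, 5.40 in GP, 1.09 in COR, and 3.28 in PF. *Slc16a3*, which encodes the lactate exporter MCT4, was at 7.54 FPKM in SAG, 36.4 in GP, 30.9 in COR, and 4.29 in PF. *Slc16a1*, which encodes the lactate carrier MCT1, ran the other way and was highest in PF, at 68.2 FPKM, with 29.6 in SAG, 34.4 in COR, and 17.5 in GP. *Ldhb*, the subunit that favours pyruvate over lactate, was at 72.1 FPKM in SAG, 49.6 in GP, 22.0 in COR, and 73.4 in PF, so that *Ldha* exceeded it by 7.96-fold in PF and 39.3-fold in COR. *Eno3*, the enolase of muscle, was lowest in SAG (8.92 FPKM, with 32.2 to 37.5 elsewhere), and *Slc2a4*, the insulin-regulated transporter GLUT4, was highest in PF (7.17 FPKM, with 1.48 in COR). The seventh, *Pgam2*, did not exceed 4.53 FPKM.

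*Vegfa* (chromosome 17, 46153942 to 46169326), the secreted factor that draws in blood vessels, was at 27.7 FPKM in SAG, 21.2 in GP, 16.5 in COR, and 16.8 in PF. SAG was highest, but the span was 1.68-fold, and only with TPM did a ratio reach 2-fold, that of PF vs SAG. Of 9 other genes for VEGF ligands and receptors, 7 reached 1 FPKM and 4 spanned 3-fold or more, beside 24.7% of all genes. *Vegfc*, a factor for lymphatic vessels, was at 17.3 FPKM in SAG, 12.9 in GP, 1.37 in COR, and 2.19 in PF. *Kdr*, which encodes the main VEGF receptor of endothelium, was at 14.9 FPKM in SAG and at most 2.12 in the other libraries. *Nrp1*, a co-receptor, was at 40.2 FPKM or more in PF and SAG and at 11.1 and 11.6 in COR and GP, and *Pgf*, placental growth factor, was highest in PF at 32.1 FPKM.

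A further 22 genes known to be induced by hypoxia had no common highest library. Of the 21 that reached 1 FPKM, GP was highest for 8, SAG for 6 (28.4% of all genes), COR for 5, and PF for 2. The all-gene shares for GP, COR, and PF are not given here. Pair by pair, 16 of the 21 were higher in GP than in PF (48.7% of all genes) and 15 higher than in COR (48.0%). Against SAG, 13 were higher and 8 lower in GP (52.1% of all genes were lower). A span of 3-fold or more was found for 6, near the 24.7% of all genes. *Adm*, the vasodilator adrenomedullin, was highest in PF, at 28.4 FPKM, with 6.28 in SAG, 6.98 in COR, and 3.52 in GP. *Lox*, which crosslinks collagen, was lowest in SAG, at 49.1 FPKM, against 288 in COR, 223 in GP, and 191 in PF. *Plod2*, a collagen lysyl hydroxylase, was at 23.2 FPKM in SAG, 46.7 in GP, 42.5 in COR, and 9.27 in PF. *Stc2* was highest in COR, at 14.8 FPKM, and *Car12*, a membrane carbonic anhydrase, in GP, at 7.78 FPKM. *Car9*, often used as a hypoxia marker, reached 1 FPKM only in GP, at 4.42.

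**Figure D4:**
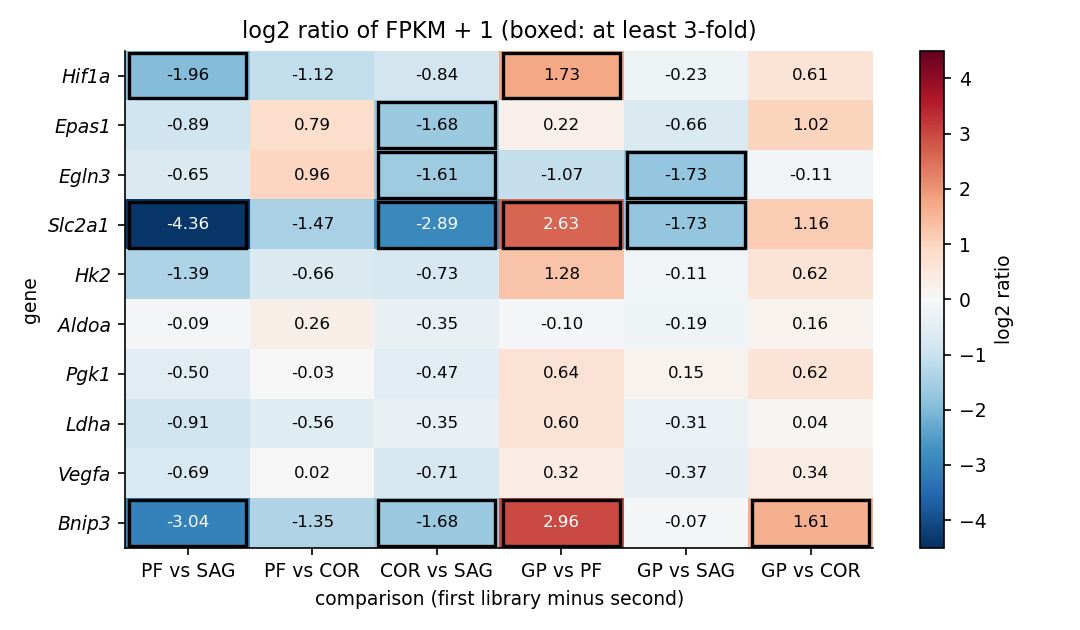
Differences of log2(FPKM + 1) for the 10 genes in the 6 comparisons of 2 libraries, first minus second, with ratios of 3-fold or more boxed. The column for PF vs SAG holds only negative values, from -4.36 to -0.09, and that for PF vs COR holds no box.

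Comparison by comparison, the suture that fuses was set against each patent suture, the patent sutures against each other, and GP against all of them. The comparisons share libraries and are not independent. In PF-CD51+;CD200+ cells all 10 members were lower than in SAG-CD51+;CD200+ cells, as were 49.0% of all genes. *Slc2a1*, *Bnip3*, and *Hif1a* were at least 3-fold lower, beside 9.04% of 13490 genes, and the median ratio was -0.90 for the members and 0.03 for all genes. Between PF and COR no member reached 3-fold among the 9 measured (11.7% of all genes), and the medians were -0.03 and 0.05. *Hk2*, below 1 FPKM in both libraries, was not among the 9. The member median depended on the setting. It was -0.29 over all 10 members without the filter, -0.37 with quantile normalization, and -0.46 with TPM (-0.10 for all genes). With median-ratio scaling and with the GC correction it was -0.02. *Slc2a1*, *Bnip3*, and *Hif1a* were at least 2-fold lower in PF than in COR, a size passed in that direction by 12.8% of all genes.

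COR-CD51+;CD200+ cells were lower than SAG-CD51+;CD200+ cells in all 10 members, against 51.4% of all genes, with a median of -0.78 for the members and -0.02 for all genes. Here 4 members, *Epas1*, *Egln3*, *Slc2a1*, and *Bnip3*, were at least 3-fold lower in COR (6.15% of all genes). GP exceeded PF at 3-fold or more in *Hif1a*, *Slc2a1*, and *Bnip3* (6.24% of all genes), with 8 of 10 members higher and a median of 0.62, against 48.7% higher and a median of -0.03 for all genes. At 2-fold, 5 members differed, *Hk2* also higher and *Egln3* lower in GP (29.1% of all genes). GP exceeded COR in 9 of 10 members (48.0% of all genes), with a median of 0.62 against -0.02, but *Bnip3* alone passed 3-fold (3.20% of all genes), and *Epas1* and *Slc2a1* brought the count at 2-fold to 3 (6.99%). In GP vs SAG, 9 of 10 members were lower (52.1% of all genes), with a median of -0.27 against -0.03, and *Egln3* and *Slc2a1* passed 3-fold (4.80% of all genes).

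Markers of other cell types also differed between the libraries. Summed over 9 chondrocyte markers, all of which reached 1 FPKM in every library, the level was 4775 FPKM in SAG, 3145 in GP, 159 in COR, and 139 in PF. The higher and lower libraries were thus those of 8 of the 10 members: *Aldoa* and *Egln3* excepted, each member was higher in both SAG and GP than in both PF and COR, as were 18.1% of all genes. For 8 osteoblast markers the sum was 887 FPKM in SAG, 8184 in GP, 11851 in COR, and 2731 in PF. For 8 choroid plexus markers it was 5414 FPKM in SAG, 135 in GP, 223 in COR, and 515 in PF, with 7 of 8 at 1 FPKM or more in PF and SAG, 4 of 8 in COR, and 3 of 8 in GP. *Ttr* alone made up 5103 FPKM of this sum in SAG and 465 in PF. Without it the sum was 311 in SAG, 125 in GP, 81.5 in COR, and 49.6 in PF, which was then lowest. Outside SAG, much of that remainder was *Enpp2* and *Aqp1*, at 83.0 and 41.1 FPKM in GP, 22.2 and 53.8 in COR, and 7.62 and 24.2 in PF. By contrast, *Otx2*, *Kcnj13*, *Clic6*, and *Folr1* were each highest in SAG and next highest in PF. *Otx2* was at 168 FPKM in SAG, 0.269 in GP, 4.09 in COR, and 10.3 in PF. *Kl* was below 1 FPKM in every library and lowest in PF. Endothelial markers summed to 17.1 FPKM in SAG, 12.7 in GP, 4.42 in COR, and 35.3 in PF over 8 genes, of which 29.5 in PF were *Esam* and 14.9 in SAG were *Kdr*, which is also one of the VEGF receptors above. *Pecam1*, an endothelial marker, was at 0.295 FPKM or less in every library, but *Cdh5* and *Flt1* reached 1 FPKM in PF alone, at 1.68 and 1.48. Of the 8 endothelial markers, 4 were at 1 FPKM or more in PF, 2 in COR, and 1 each in SAG and GP. Blood markers summed to 55.8 FPKM in PF and to between 8.37 and 11.2 elsewhere over the 7 genes of 8 that are listed. The 6 neuronal markers summed to 10.8 FPKM in SAG, 3.80 in GP, 10.5 in COR, and 3.29 in PF, and 10.2 in COR were *Tubb3*. In SAG 5 of the 6 were at 1 FPKM or more, in PF and GP 2 each, and in COR 1. The part of these cell types, and of the lower depth of PF, in the members' values was not tested.

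**Figure D5:**
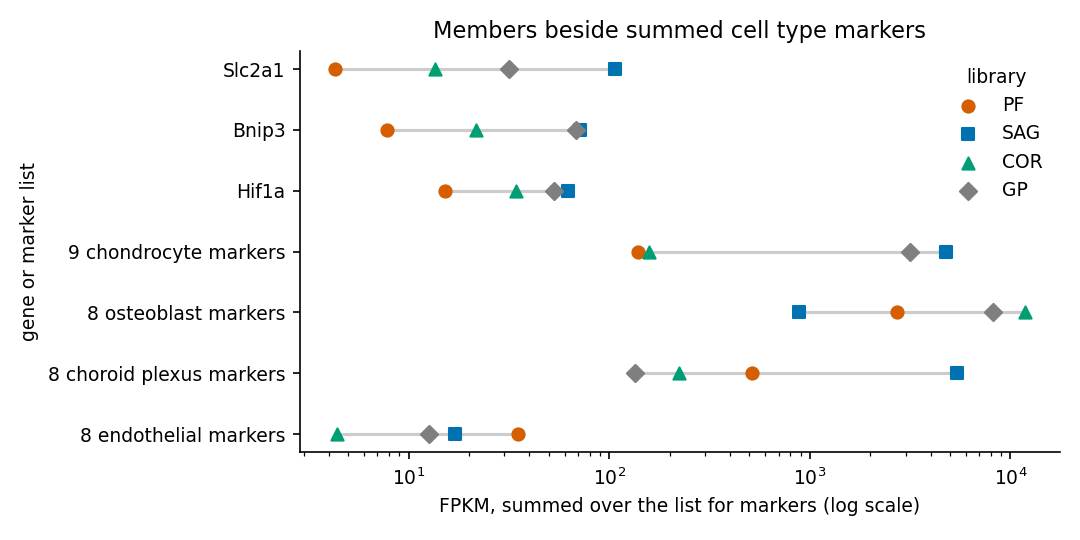
FPKM (log axis) of *Slc2a1*, *Bnip3*, and *Hif1a* and summed FPKM of 4 marker lists, 1 point per library. SAG and GP are the upper libraries for the 3 genes and for the chondrocyte markers (4775 and 3145 FPKM), whereas SAG is the lowest library for the osteoblast markers (887 FPKM).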

How the data were processed

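Total RNA of double-sorted cells was amplified from low input and sequenced in paired ends on an Illumina HiSeq. The authors mapped reads to mm9 with STAR 2.5.1b and ran Cuffdiff of Cufflinks 2.2.1 with the iGenomes gene model. The deposited unit is FPKM per gene symbol, 1 file per library, and how Cuffdiff set library size is not given in the sources used here. Each library was assigned to its tissue by its GEO title.

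The 10 genes and the other lists were chosen with earlier results of these data known. All 10 members were named, together with genes of each pathway list that spanned 3-fold and reached 5 FPKM, and the partner genes. *Car9*, *Cited2*, *Pgam2*, *Pgk2* and the other gene copies, *Pdha1*, and *Pdk1* were chosen after values were seen. So were *Esam*, *Ttr*, *Pecam1*, and the other genes named only as cell type markers. The sums per glycolytic step, the transporter sum, and the choroid plexus sum without *Ttr* were also chosen then. Ratios used log2(FPKM + 1) for genes at 1 FPKM or more in at least 1 library compared, with 3-fold as the limit. The study used that fold size together with a test in Cuffdiff, which has no counterpart here. With 1 library per tissue no test, interval, or p-value was computed. Relative depth came from the modal low value of FPKM multiplied by transcript length, taking FPKM as proportional to fragments, and a library of lower depth gives less precise low values. Gene positions and GC content came from GENCODE vM1 on mm9, where 80.8% of symbols have a coding transcript, and promoter sequences from RefSeq (GRCm38.p6), placed on mm9 by exact match.

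Alternatives were a pseudocount of 0.1, median-ratio scaling, quantile normalization, TPM, other filters, and a 2-fold limit. A GC correction (loess, span 0.3) and no pseudocount were added after the data were seen. Scripts ran in Python 3.11.15 (matplotlib 3.10.9, statsmodels 0.14.6, scipy 1.17.1, pandas 2.3.3, numpy 2.4.6) and were tested on simulated data.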

Additional observations from a re-analysis of the deposited data

How the results depend on the processing

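No paired analysis was possible because the groups hold 1 library each and share no replicates, and for the same reason none could be left out of a group. Of 510 ratios of single members recomputed under alternatives, 482 kept their direction and their side of 3-fold, 13 passed it anew, 7 no longer passed it, and 8 that lay near 0 changed sign. A change of filter leaves every ratio as it was, so part of the 482 was fixed in advance. These were 59 ratios with no filter, 52 with 1 FPKM or more in both libraries, and 45 with 5 FPKM or more in at least 1. Ratios that no longer passed included *Hif1a* in PF vs SAG and GP vs PF and *Bnip3* in COR vs SAG and GP vs COR after the GC correction. For PF vs COR, where no member passed, 1 did with a pseudocount of 0.1, with TPM, and after the GC correction, and 3 passed 2-fold. For COR vs SAG, 2 in place of 4 passed with quantile normalization. For GP vs PF, 5 in place of 3 passed 2-fold. For GP vs COR, 2 in place of 1 passed with a pseudocount of 0.1, 3 at 2-fold, and 0 with TPM or the GC correction. The cause was not tested. TPM moved the median of all genes for PF vs SAG from 0.03 to -0.28, since the total FPKM of PF, 550958, exceeds that of SAG, 447174. Depth limits *Hk2* most, at about 22.3 fragments in PF, then *Epas1*, at 95.3 in COR, and *Egln3*, at 142 in GP.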

Other observations

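The entry of pyruvate into mitochondria was covered by 10 genes of the pyruvate dehydrogenase complex, its kinases, and the pyruvate carrier, all at 1 FPKM or more in at least 1 library. PF was lowest for 5 of them, as for 34.3% of all genes, and 8 stayed within 2-fold, a span that 50.9% of all genes reached. *Pdha1*, a subunit of the complex, was at 51.9 FPKM in SAG, 54.2 in GP, 70.4 in COR, and 39.2 in PF. *Pdk4*, a kinase that shuts the complex down and is known to be induced by fasting, was the single gene past 3-fold, at 2.2 FPKM in SAG, 7.76 in GP, 1.63 in COR, and 0.0661 in PF. *Pdk1*, the kinase known as a HIF target, was at 7.98 FPKM in SAG, 10.6 in GP, 7.6 in COR, and 4.66 in PF, a narrower span with the same library lowest and highest.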
